A study of Mus musculus with 9 samples.

Results

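Ubiquitin editors and suppressor of cytokine signalling (SOCS) genes, which restrain NF-kB and JAK-STAT signalling after an inflammatory stimulus, were followed as a set of 10 genes among the 25494 of the deposited table. Members were taken by gene name. Of these, 7 are linked to ubiquitin or to TNF and NF-kB signalling (Tnfaip3, Tnip1, Tnip2, Tnfaip2, Cyld, Birc2 and Birc3) and 3 belong to the SOCS family (Socs1, Socs3 and Cish). All 10 were listed in each of the 3 comparisons of the study.

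The cells were immortalized mouse bone marrow-derived macrophages in which the Zfp36 gene, which encodes the RNA-binding protein tristetraprolin (TTP), is disrupted. In every group, controls included, the cells carried hc-myc and hRasG12V as immortalizing genes and a doxycycline-inducible retroviral construct, and every group received 1 µg/ml doxycycline for 6 h and 1 µg/ml LPS for 1 h. The construct encoded GFP in the GFP group, a GFP fusion of wild-type TTP in the TTP group, and in the TTP-AA group the same fusion with both serines that the kinase MK2 phosphorylates replaced by alanine. Each group had 3 libraries of RNA depleted of rRNA, 9 in all. The constructs hold the coding sequence only. The study's methods as read here do not say whether a line was 1 clone, and the labels do not say that the replicates came from separate cultures, so p-values measure the spread between these libraries. All 9 libraries analysed here had both LPS and doxycycline, so a difference between groups cannot be told apart from one that existed between the cell lines before induction.

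Signals from TNF receptors and Toll-like receptors pass through ubiquitin chains that kinases of the NF-kB pathway bind. A20 (Tnfaip3) edits and removes such chains with help from its binding partners ABIN-1 (Tnip1) and ABIN-2 (Tnip2), the deubiquitinase Cyld cuts them, and the ubiquitin ligases cIAP1 (Birc2) and cIAP2 (Birc3) build them. SOCS proteins are induced by cytokines and dampen the Janus kinases and their receptors, and LPS induces several members of both families in macrophages. TTP binds AU-rich sequences in 3′UTRs, of which TATTTAT is the usual core, and speeds the decay of the bound mRNA.

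The deposited value per library is a fitted mean of the authors' model, the product of a library factor, a term shared by all libraries of a replicate number and a group term. After division by the library factor it is called a scaled fitted count here. It shows the level of each group and the offset of each replicate number but carries no scatter between replicates, so groups that do not overlap in it need not differ. Groups whose ranges overlap may also differ, since the comparisons take the offset of each replicate number out. By the form of the model, groups keep their order at each replicate number and replicate numbers keep theirs in each group. Such agreement is therefore no support from separate replicates. Log2 fold changes, standard errors (SE) and adjusted p are DESeq2 values of the authors' deposited comparison tables, from 3 libraries per group, with a threshold of 0.05. The sums of fitted counts ran from 21482954 to 102613526 per library, TTP replicate 1 being the shallowest and TTP-AA replicate 3 the deepest. The deposited fold changes were shrunk toward 0: among 7462 genes with a mean fitted count under 1 no change for TTP-AA versus GFP exceeded 0.14 in size, and no SE in the comparison tables exceeded 0.235. Cish (SE 0.234), Tnfaip2 (0.233) and Birc3 (0.227) lay near that ceiling, and how far their changes are understated was not measured.

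Zfp36 itself had scaled fitted counts of 1741, 1423 and 894 in GFP, of 1794, 1461 and 921 in TTP and of 2796, 2278 and 1437 in TTP-AA. The change for TTP versus GFP was 0.04 ± 0.17 (DESeq2 adjusted p 0.930), so Zfp36 gave no check of the TTP label. Zfp36 was higher in TTP-AA by 0.69 ± 0.17 than in GFP and by 0.65 ± 0.17 than in TTP (DESeq2 adjusted p 0.000682 and 0.000902), and the part of this difference in the results that follow was not tested. The macrophage markers Csf1r, Itgam, Adgre1, Cd68, Lyz2, Cd14 and Fcgr1 were present in all groups and Mertk was low (a mean of 16.3 to 19.7). The summed level of these 8 markers ran from 580537 to 798182 in GFP, from 486131 to 664081 in TTP and from 659492 to 900921 in TTP-AA. Lyz2 made up most of this sum, with means of 597727 in GFP, 490674 in TTP and 668799 in TTP-AA. Of 6 measured markers of other cell types, Epcam, Col1a1, Pecam1 and Ncr1 had means under 5 in every group, while the neutrophil and myeloid gene S100a8 and Flt3 had more. In bulk RNA, fewer cells of a kind and less RNA per cell cannot be told apart.

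Socs1 was the member with the largest difference between groups, about 2.5 times as high in TTP-AA as in GFP and 2.9 times as high as in TTP. Its protein binds Janus kinases and blocks signalling by interferons. Tnip1 rose in TTP-AA relative to GFP, and Birc3 rose in TTP-AA relative to TTP. No member passed the test between TTP and GFP, and no member was called lower in any comparison.

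Of the 10 members, 0 were called for TTP versus GFP by DESeq2, where 9.16% of the 11977 genes tested were called (4.08% higher and 5.08% lower), and 0 of the 10 had an unadjusted p under 0.05, beside 2553 of the 11977. For TTP-AA versus GFP 2 of 10 were called, Socs1 and Tnip1, beside 17.9% of the 13205 genes tested (9.11% higher and 8.77% lower). For TTP-AA versus TTP 2 of 10 were called, Socs1 and Birc3, beside 28.6% of 13205 genes (14.0% higher and 14.6% lower). The shares of members called for both TTP-AA comparisons are near those of all genes, and they rest on 2 genes each. The combined Wald test for any difference among the 3 groups called Socs1 (adjusted p 5.6e-13), Birc3 (0.0397) and Tnip1 (0.00927), 3 of 10 members where 33.1% of the 11977 genes listed in all comparisons passed.

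**Figure D1:**
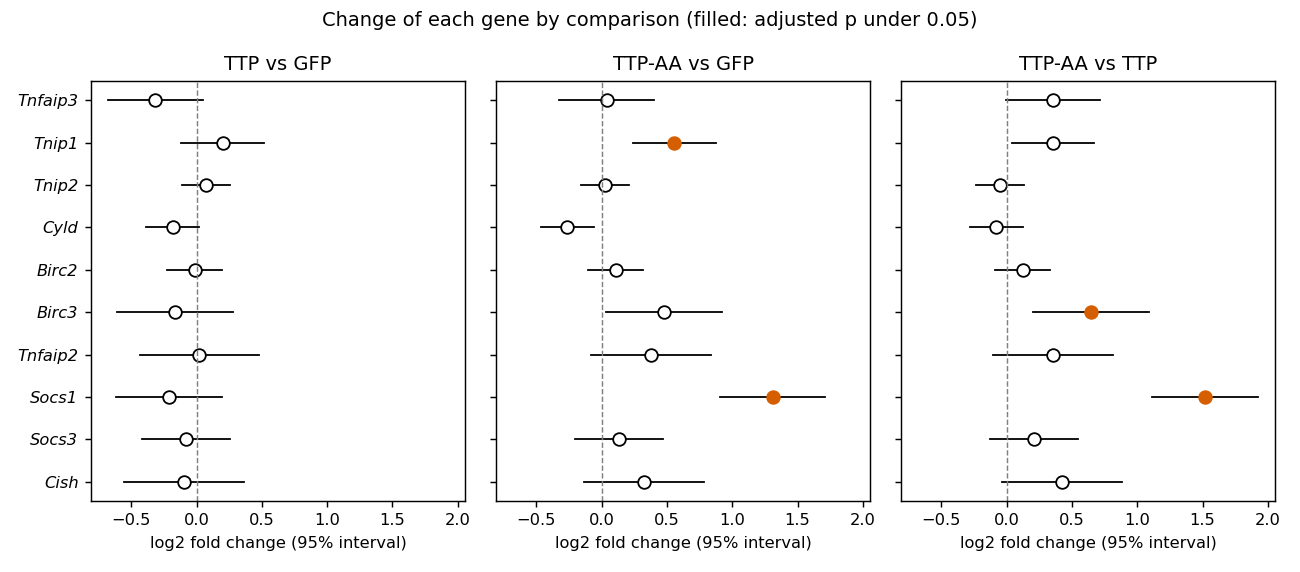
Log2 fold change of each of the 10 genes (x axis, with 95% interval from the deposited SE) in TTP versus GFP, TTP-AA versus GFP and TTP-AA versus TTP, filled where the DESeq2 adjusted p was under 0.05. Socs1 lies at 1.31 and 1.52 in the comparisons with TTP-AA, while all 10 intervals for TTP versus GFP include 0.

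The median log2 fold change of the 10 members was -0.09 for TTP versus GFP, 0.23 for TTP-AA versus GFP and 0.35 for TTP-AA versus TTP, beside 0.01, 0.00 and -0.01 over all listed genes. Positive values were held by 3, 9 and 8 of the 10 members in these comparisons, beside 52.3%, 50.3% and 48.6% of all genes. The group term was highest in TTP-AA for 8 of the 10 and lowest in TTP for 6. The comparisons share libraries, so these counts are not independent of each other, and most of the single differences behind them did not pass the test.

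**Figure D2:**
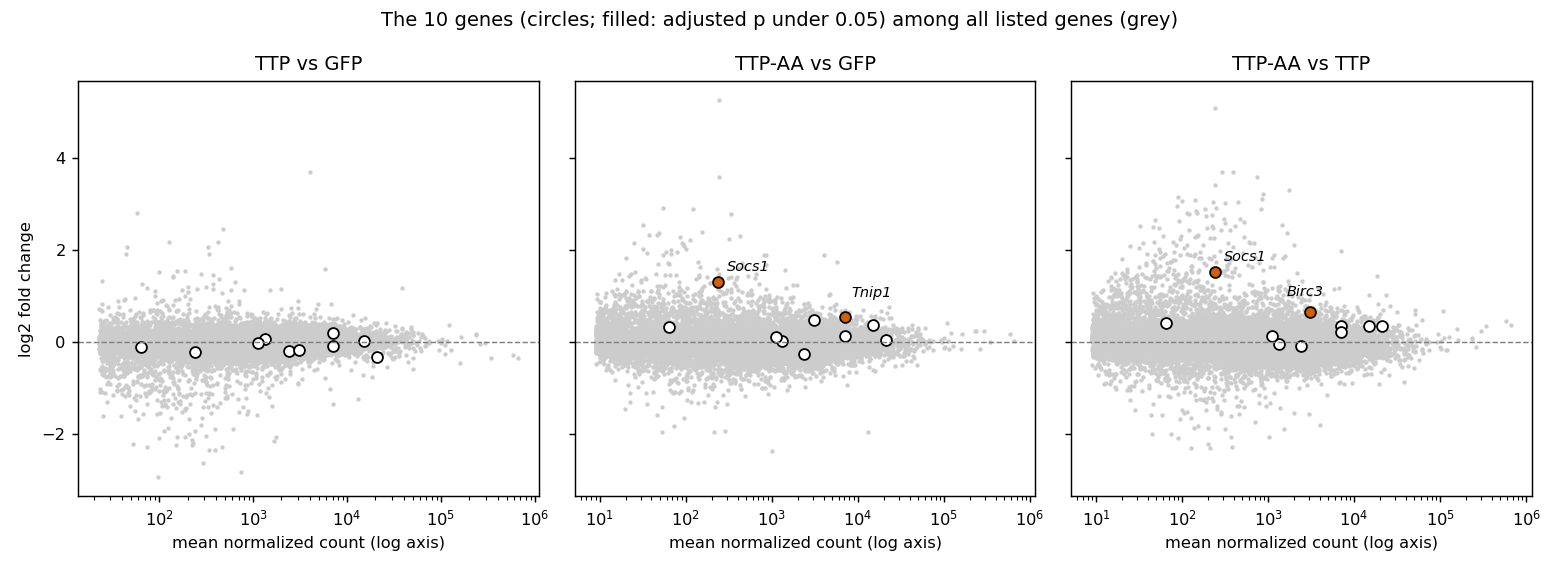
Log2 fold change (y axis) against mean normalized count over the 9 libraries (x axis, log scale) for all listed genes in grey and the 10 members as circles, filled and named where the DESeq2 adjusted p was under 0.05. The members span means from 64.7 (Cish) to 21034 (Tnfaip3), and none is called for TTP versus GFP.

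Among the SOCS genes, Socs1 (ENSMUSG00000038037, chromosome 16, 10782240 to 10785536, minus strand, GRCm38, protein coding) had scaled fitted counts of 134, 162 and 165 in GFP, of 116, 140 and 143 in TTP and of 330, 397 and 406 in TTP-AA. The lowest TTP-AA value was 2 times the highest GFP value, and the GFP and TTP ranges overlapped. The log2 fold change was 1.31 ± 0.21 (SE) for TTP-AA versus GFP (DESeq2 adjusted p 1.8e-08) and 1.52 ± 0.21 for TTP-AA versus TTP (adjusted p 1.1e-11), with a 95% interval from 1.11 to 1.93 for the latter. For TTP versus GFP it was -0.21 ± 0.21 (adjusted p 0.623, 95% interval -0.62 to 0.20). The Wald scores of all genes had a central spread (their interquartile range on the scale of a normal curve) of 1.77 for TTP-AA versus GFP and 2.17 for TTP-AA versus TTP, where unchanged genes with well-sized errors would give 1. With each score divided by that spread, Socs1 was the only member still called in these comparisons (adjusted p 0.0298 and 0.0389). Genes of chromosome 16 had a median of 0.12 in both comparisons with TTP-AA, and with that median taken off the Socs1 changes were 1.19 and 1.40.

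Some marker genes differed between groups as well, not all in the direction of Socs1. The macrophage marker Adgre1, which encodes the F4/80 antigen by which the cells had been characterized, changed by -0.75 ± 0.14 for TTP versus GFP (DESeq2 adjusted p 1.3e-05). Adgre1 was higher in TTP-AA by 0.68 ± 0.14 than in GFP and by 1.43 ± 0.14 than in TTP. S100a8 was higher in TTP-AA by 0.76 ± 0.21 than in GFP and by 0.74 ± 0.21 than in TTP (DESeq2 adjusted p 0.00415 and 0.0033). Fcgr1 was highest in GFP, changing by -1.20 ± 0.18 for TTP versus GFP (DESeq2 adjusted p 3.0e-09). It changed by -0.39 ± 0.18 for TTP-AA versus GFP (adjusted p 0.121) and 0.82 ± 0.18 for TTP-AA versus TTP (adjusted p 8.6e-05). Itgam, which encodes CD11b, the other antigen used to characterize the cells, was called in no comparison, and neither was Flt3. Of the 8 macrophage markers 1 was called for TTP-AA versus GFP, beside 17.9% of all genes. For TTP-AA versus TTP 3 were called, Lyz2 among them at 0.46 ± 0.10 (DESeq2 adjusted p 0.000133), beside 28.6%. All of these were higher, and the medians of the 8 markers were 0.19 and 0.26. Of the 7 markers listed for TTP versus GFP 2 were called, both lower, beside 9.16% of all genes. The same markers stand beside the Tnip1 and Birc3 results, and their part in any of these results was not tested.

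The sequence just before the Socs1 start is shown because it holds the only match among the members to GAAANNGAAA, a core of the interferon-stimulated response element (ISRE). The 250 bases before the RefSeq start (GRCm38.p6, chr16:10785537-10785786, minus strand) read as follows, with both matches, which overlap, in capitals.
Socs1: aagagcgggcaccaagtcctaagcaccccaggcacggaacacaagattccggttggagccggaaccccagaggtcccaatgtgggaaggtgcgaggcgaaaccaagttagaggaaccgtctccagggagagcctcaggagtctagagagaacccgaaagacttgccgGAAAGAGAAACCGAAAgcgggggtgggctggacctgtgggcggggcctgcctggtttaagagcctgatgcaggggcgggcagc
The 2 matches span bases -83 to -68 relative to the start, where -1 is the last base before it. Searched on both strands, GAAANNGAAA occurs in 3.44% of the 32851 RefSeq promoter windows of 300 bases, which run from 250 bases before to 50 after each start. A match is a run of letters and not a measured site of binding.

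Socs3 (chromosome 11, 117966079 to 117970047, minus strand), whose protein limits signalling through the receptor chain gp130, was the most abundant SOCS gene per length. Its scaled fitted counts were 6837, 8453 and 5767 in GFP, 6482, 7989 and 5467 in TTP and 7429, 9161 and 6272 in TTP-AA, and all 3 ranges overlapped. Its changes were -0.08 ± 0.17, 0.13 ± 0.17 and 0.21 ± 0.17 for TTP versus GFP, TTP-AA versus GFP and TTP-AA versus TTP (DESeq2 adjusted p 0.858, 0.681 and 0.392). The 95% interval for TTP-AA versus TTP, -0.13 to 0.55, lies below that of Socs1 in the same comparison, although the difference between the genes was not tested.

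Cish (chromosome 9, 107296026 to 107302784, plus strand), a SOCS gene linked to STAT5 signalling, was the lowest member, with scaled fitted counts of 41.4, 55.3 and 78.8 in GFP, of 38.8, 51.7 and 73.9 in TTP and of 51.5, 68.6 and 98.2 in TTP-AA. The term shared by a replicate number was highest for replicate 3 and lowest for replicate 1, and the groups overlapped. Its change was 0.42 ± 0.23 for TTP-AA versus TTP (DESeq2 adjusted p 0.172), 0.33 ± 0.23 for TTP-AA versus GFP (adjusted p 0.371) and -0.09 ± 0.23 for TTP versus GFP (adjusted p 0.875). Of its exon bases 7.46% are shared with Gm17041, an antisense gene on the other strand, and the sources do not state whether reads were counted by strand.

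Socs3 and Cish hold matches to TTCNNNGAA, the core of the GAS element that STAT dimers bind. Cish has 2 of them just after its start, Socs3 has 1 at bases -154 to -146, and Tnip1 and Tnip2 have 1 each. That makes 4 of the 10 members, which have 12 windows in all, beside 8.30% of all promoter windows. A count of genes and a share of windows are unlike units. Socs1 has none in its window. Socs3, Cish and Tnip2 were called in no comparison, and Tnip1 for TTP-AA versus GFP only, where 17.9% of all genes were called.

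Of the A20 group, Tnip1 (ENSMUSG00000020400, chromosome 11, 54910785 to 54962917, minus strand, protein coding) had scaled fitted counts of 4170, 4562 and 8730 in GFP, of 4797, 5231 and 10043 in TTP and of 6089, 6643 and 12759 in TTP-AA. The term shared by a replicate number was highest for replicate 3, at about 2 times the others, and the groups overlapped. The group term rose in the order GFP, TTP, TTP-AA, with a log2 fold change of 0.56 ± 0.16 for TTP-AA versus GFP (DESeq2 adjusted p 0.00578, 95% interval 0.24 to 0.87). Neither neighbouring step passed the test, with 0.20 ± 0.16 for TTP versus GFP (adjusted p 0.516) and 0.36 ± 0.16 for TTP-AA versus TTP (adjusted p 0.0803). The call for TTP-AA versus GFP was lost once scores were divided by that central spread (adjusted p 0.554). Genes of chromosome 11 had a median of -0.14 for TTP-AA versus TTP, and with it taken off Tnip1 passed there too (0.49, adjusted p 0.0118).

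The Tnip1 promoter is shown because it holds 3 of the kB matches, the consensus for NF-kB dimers, at 1 place near the start. The 250 bases before the RefSeq start (GRCm38.p6, chr11:54962941-54963190, minus strand) are given with a GAS match and the run of 3 overlapping kB matches in capitals.
Tnip1: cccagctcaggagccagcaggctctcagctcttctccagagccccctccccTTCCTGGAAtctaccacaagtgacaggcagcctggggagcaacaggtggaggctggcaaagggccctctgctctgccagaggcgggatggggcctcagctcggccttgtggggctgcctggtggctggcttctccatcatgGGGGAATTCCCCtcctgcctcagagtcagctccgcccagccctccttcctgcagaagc
The kB run spans bases -58 to -47 and the GAS match bases -199 to -191. On both strands the kB consensus has a match in 8.46% of the promoter windows. Among the members Tnfaip3, Tnip1, Tnfaip2 and Cyld hold it, 4 of 10 genes, which have 12 windows in all. Of these 4 Tnip1 alone was called in a comparison, and the called genes Socs1 and Birc3 hold no kB match in their windows.

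Tnfaip3 (ENSMUSG00000019850, chromosome 10, 19000910 to 19015657, minus strand), which encodes A20 itself, was the most abundant member per length. Its scaled fitted counts were 21668, 24192 and 21339 in GFP, 17448, 19419 and 17183 in TTP and 22091, 24597 and 21777 in TTP-AA. All TTP values lay below all others, but fitted values hold no scatter, and the changes did not pass the test. They were -0.31 ± 0.18 for TTP versus GFP (DESeq2 adjusted p 0.322, 95% interval -0.68 to 0.05), 0.04 ± 0.18 for TTP-AA versus GFP (adjusted p 0.920) and 0.35 ± 0.18 for TTP-AA versus TTP (adjusted p 0.142, interval -0.01 to 0.72). Genes of its chromosome, 10, had medians of -0.13 for TTP versus GFP and 0.15 for TTP-AA versus TTP, with which the Tnfaip3 estimates share their sign. Taking these medians off left -0.18 and 0.21.

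Tnip2 (chromosome 5, 34496087 to 34513991, minus strand), the other partner of A20, had scaled fitted counts from 1105 to 1419 in GFP, from 1164 to 1495 in TTP and from 1114 to 1432 in TTP-AA. Its 3 estimates were 0.07 ± 0.09, 0.02 ± 0.09 and -0.05 ± 0.09 in the order TTP versus GFP, TTP-AA versus GFP and TTP-AA versus TTP (DESeq2 adjusted p 0.730, 0.904 and 0.748). Their 95% intervals all lay between -0.23 and 0.26, which makes Tnip2 one of the members with the narrowest bounds.

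Cyld (chromosome 8, 88697028 to 88751945, plus strand), the deubiquitinase, was the only member whose estimate was negative in both comparisons with GFP and in TTP-AA versus TTP. Its scaled fitted counts were 2718, 2476 and 2792 in GFP, 2400, 2179 and 2465 in TTP and 2248, 2042 and 2311 in TTP-AA, and all TTP-AA values lay below all GFP values. The change for TTP-AA versus GFP was -0.26 ± 0.10 (DESeq2 adjusted p 0.0591) and that for TTP versus GFP -0.18 ± 0.10 (adjusted p 0.304). Between TTP-AA and TTP it was -0.08 ± 0.10 (DESeq2 adjusted p 0.616). With the chromosome 8 median of 0.02 taken off, the former passed the threshold (-0.29, adjusted p 0.0389).

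Birc3 and Birc2 encode the cellular inhibitors of apoptosis and lie close together on chromosome 9. Birc3 (ENSMUSG00000032000, 7848699 to 7873186, minus strand, protein coding) had scaled fitted counts of 1971, 2552 and 3595 in GFP, of 1759, 2271 and 3209 in TTP and of 2729, 3524 and 4983 in TTP-AA. The groups overlapped across replicate numbers, the term of replicate 3 being the highest. Its change was 0.65 ± 0.23 for TTP-AA versus TTP (DESeq2 adjusted p 0.0195, 95% interval 0.20 to 1.09), 0.48 ± 0.23 for TTP-AA versus GFP (adjusted p 0.131) and -0.17 ± 0.23 for TTP versus GFP (adjusted p 0.744). The call was lost once scores were divided by that central spread (adjusted p 0.850). Birc2 (7818227 to 7837064, minus strand) had a narrow range of scaled fitted counts from 994 to 1248 over all 9 libraries, and its largest estimate was 0.12 ± 0.11 for TTP-AA versus TTP (DESeq2 adjusted p 0.426). The others were 0.11 ± 0.11 for TTP-AA versus GFP and -0.02 ± 0.11 for TTP versus GFP (DESeq2 adjusted p 0.552 and 0.962). Whether both genes differ in their change was not tested.

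The 2 paralogs are similar enough for reads to be shared in places. Of the distinct 50-base runs in Birc2 transcripts 65 of 4579 also occur in Birc3, and 7.56% of the 5079 runs of Birc3 occur in another gene, the processed pseudogene Gm7019 holding 213 of them. Reads placed more than once were kept within a limit by the authors' alignment. The sources do not state how such reads were then counted, so a small part of the Birc3 count may be uncertain. Cish shares a larger part of its runs, 9.35% of 6559, most often with the antisense gene Gm17041, and Tnfaip2 shares 4.53% of 5273, all with the antisense gene Gm40578. For Cyld 0.447% of 12752 runs are shared. Socs1, Socs3, Tnfaip3, Tnip1 and Tnip2 share no such run with any other annotated gene.

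Tnfaip2 (chromosome 12, 111442469 to 111455018, plus strand), a gene induced by TNF, had scaled fitted counts from 8150 to 17534 in GFP, from 8291 to 17838 in TTP and from 10512 to 22638 in TTP-AA. Its estimates were 0.02 ± 0.23, 0.38 ± 0.23 and 0.36 ± 0.23 in the same order of comparisons (DESeq2 adjusted p 0.974, 0.281 and 0.263). With a 95% interval of -0.10 to 0.81 for TTP-AA versus TTP, neither no difference nor one as large as that of Birc3 lies outside its bounds. Of its exon bases 6.30% are shared with the antisense gene Gm40578.

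**Figure D3:**
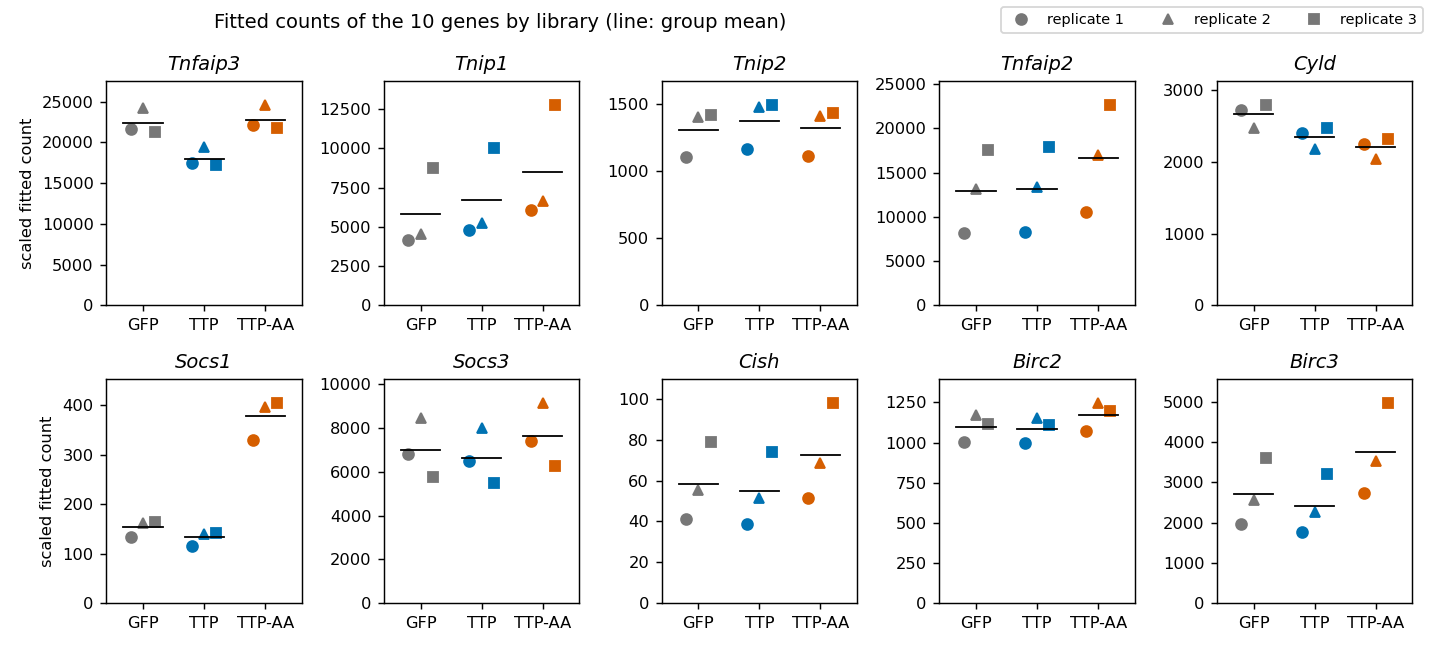
Scaled fitted counts (y axis, from 0) of each of the 10 genes in the 3 GFP, 3 TTP and 3 TTP-AA libraries, with markers for replicates 1 to 3 and a line at each group mean. The 3 TTP-AA points of Socs1 (330 to 406) stand above all 6 others (116 to 165). In 7 of the 10 genes, among them Tnip1, Birc3, Cish and Tnfaip2, the replicate number moves the level more than the group does.

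Per kilobase of exon, the mean scaled fitted counts in GFP put the members in the order Tnfaip3 (3100), Tnfaip2 (2598), Socs3 (2428), Tnip1 (1645), Birc3 (540), Tnip2 (488), Birc2 (239), Cyld (212), Socs1 (52.8) and Cish (9.11). Among 13133 genes with a length, these levels ran from percentile 94.9 for Tnfaip3 to percentile 9.59 for Cish, with Socs1 at percentile 25.9. In TTP-AA the level of Socs1 per kilobase was 130, still below that of Cyld at 175. The member with the largest change was thus one of the 2 least abundant. Neighbours in this order were not tested against each other.

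The replicate number moved several members more than the group did. The span of the 3 replicate-number terms was larger than that of the 3 group terms in 7 of 10 members, beside 59.6% of the 13205 genes. For Tnip1 the spans were 1.07 and 0.55 on the log2 scale, for Tnfaip2 1.11 and 0.37, for Cish 0.93 and 0.41 and for Birc3 0.87 and 0.63, and all 4 were highest in replicate 3. The others of the 7 were Socs3 (0.55 and 0.20), Tnip2 (0.36 and 0.07) and Birc2 (0.22 and 0.11). Of these, Tnip2 was highest in replicate 3, and Socs3 and Birc2 were highest in replicate 2. Socs1 had the opposite balance, 0.29 against 1.51, and so to a lesser degree did Tnfaip3 and Cyld. The authors' model held a library date term that split the libraries as the replicate numbers do, so these offsets were taken out of the group comparisons. Fits within 1 replicate number could not be made, since each holds 1 library per group.

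**Figure D4:**
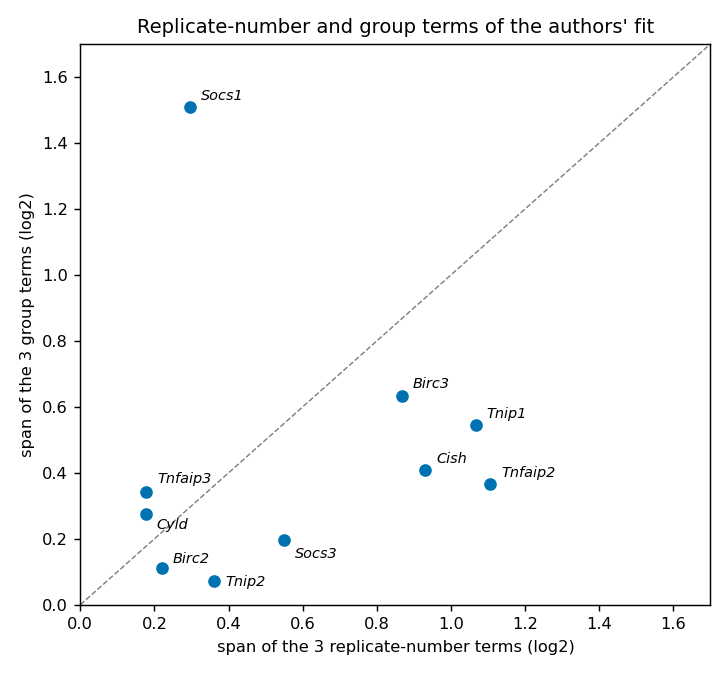
Span of the 3 replicate-number terms (x axis) against the span of the 3 group terms (y axis) in the authors' fit, both on the log2 scale, for the 10 genes, with a dashed line of equality. Socs1 lies far above the line at a group span of 1.51, and 7 of 10 genes lie below it.

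The AU-rich core TATTTAT that TTP recognizes was looked for in the 3′UTRs of 9 of the members, taken from GENCODE M21 for the transcript with the longest coding sequence. It occurs in 4 of these 9 (Cyld, Socs3, Cish and Birc3), beside 27.4% of 11419 listed genes with a 3′UTR. Socs1 and Tnip1, both higher in TTP-AA than in GFP, have neither this core nor the shorter ATTTA in 3′UTRs of 1993 and 750 bases. Among genes with a 3′UTR within 25% of the same length, 89.9% and 64.3% hold an ATTTA. Birc3 is the called member with a core, at base 465 of a 3′UTR of 564 bases, and 16.2% of genes of like length have one.

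The sites of Birc3 and Cish are shown because they hold a core with a T on both sides, the longer form of the element. Each line gives 23 bases of the GRCm38 transcript strand with the core in capitals, at chr9:7848784-7848806 (minus strand) for Birc3 and chr9:107301380-107301402 (plus strand) for Cish, both in 3′UTR exons.
Birc3: attcctgtTATTTATtggatgac
Cish: acagtattTATTTATttattctc
Cish has 3 overlapping cores in a row, and Socs3 has 2 that overlap near the end of its 3′UTR. Of the 4 members with a core, 0 were called for TTP versus GFP by DESeq2, beside 9.16% of all genes. For TTP-AA versus TTP 1 was called, Birc3, which was higher in TTP-AA, beside 28.6% of all genes. Among the 5 members without a core, Socs1 was called in both TTP-AA comparisons. Tnip1 was called for TTP-AA versus GFP only, where 17.9% of all genes were called. These counts are too small to set members with a core against those without, and neither binding nor decay was tested.

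**Figure D5:**
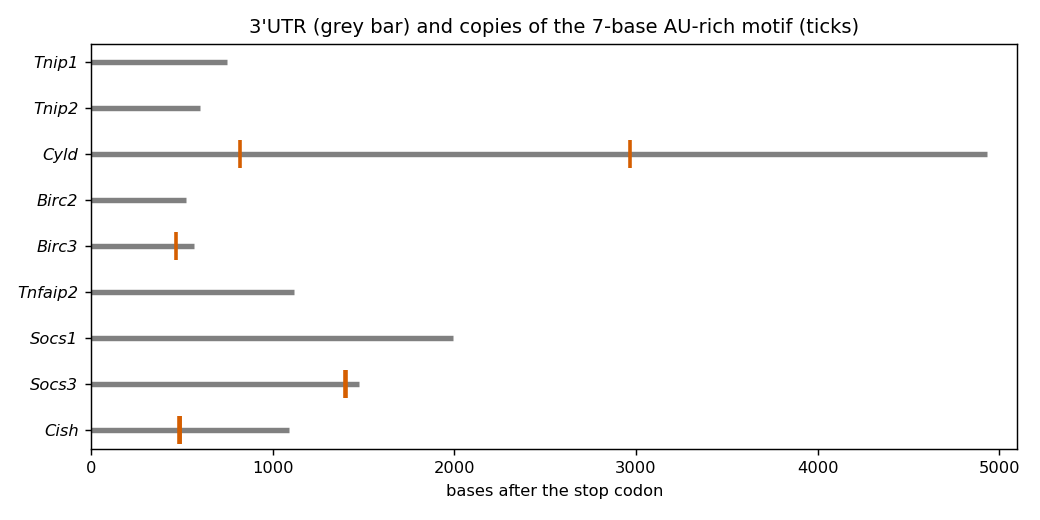
The 3′UTR of 9 of the genes drawn to scale (grey bar, x axis in bases after the stop codon) with copies of the 7-base core as ticks. Cores stand in Cyld, Birc3, Socs3 and Cish, and Socs1 has none in 1993 bases.

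Genes that work with the ubiquitin editors were examined as a list of 33, all of them listed, which included linear ubiquitin ligase subunits, Traf adaptors and IKK kinases. For TTP versus GFP 0 of 33 were called by DESeq2 and 2 had an unadjusted p under 0.05, beside 2553 of the 11977 genes tested. For TTP-AA versus GFP 4 were called higher and 1 lower, 15.2% of the list. Of these, the autophagy receptor and ubiquitin binder Optn was higher by 0.53 ± 0.16, Traf2, which recruits the cIAPs to TNF receptors, by 0.35 ± 0.12 and Traf3 by 0.33 ± 0.09, and the kinase Ripk1 by 0.32 ± 0.10. Tax1bp1, an adaptor of A20 added here as the only fall, fell by 0.25 on the log2 scale (SE 0.07). For TTP-AA versus TTP 7 were called higher and 2 lower, 27.3%, and with chromosome medians taken off 4 were higher and 1 lower. The rises were led by Tnip3, the third partner of A20, at 0.68 ± 0.22, Traf1 at 0.68 ± 0.23, Optn at 0.50 ± 0.16 and Traf2 at 0.42 ± 0.12. The median of the list was -0.06, 0.06 and 0.09 in the 3 comparisons, and its shares of called genes were close to or below those of all genes.

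Genes that act with the SOCS proteins, among them other SOCS members, Janus kinases, phosphatases, ligase subunits and cytokine receptors, made up a list of 31, all listed. For TTP versus GFP 1 was called higher and 1 lower, 6.45% of the list beside 9.16% of all genes. The RING subunit Rnf7 was higher by 0.59 ± 0.08 (DESeq2 adjusted p 2.1e-12), and the interleukin-10 receptor gene Il10ra changed by -0.69 ± 0.23 (adjusted p 0.0344). For TTP-AA versus GFP 6 were higher and 1 lower, 22.6% of the list beside 17.9% of all genes, led by the kinase Jak2 at 0.65 ± 0.14 and the receptor genes Ifnar1 at 0.51 ± 0.11, Csf2rb at 0.45 ± 0.15 and Il10rb at 0.45 ± 0.11.

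For TTP-AA versus TTP 12 of the 31 were called higher and 4 lower, 51.6% beside 28.6% of all genes, with a list median of 0.17. The list, cytokine receptors included, was chosen with earlier results of these data known. Its share is therefore no test of the genes that act with SOCS proteins. Il10ra was higher by 0.95 ± 0.23, Ifnar1 by 0.75 ± 0.12, Jak2 by 0.69 ± 0.14 and Il10rb by 0.66 ± 0.11. The other SOCS genes Socs2, Socs4, Socs5, Socs6 and Socs7 were called in no comparison as deposited, so of the 8 family members Socs1 alone passed there. With a GC and length trend removed Socs4 was called higher too, for TTP-AA versus GFP. Ifnar1, Ifnar2, Il10rb and Ifngr2, all called higher in both TTP-AA comparisons and set together after their values were seen, lie on chromosome 16 with Socs1. How far these genes lie from Socs1 or from each other was not examined, and a shared cause was not tested. With chromosome medians taken off 5 of the list were called for TTP-AA versus GFP, where Ifnar2 and Ifngr2 no longer passed, and 13 for TTP-AA versus TTP. Once scores were divided by their central spread 0 were called in either.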

How the data were processed

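Total RNA depleted of rRNA was sequenced from 9 libraries, 3 per group, grouped by sample title. The submitters' processing notes name Trim Galore, TopHat2 2.0.12, HTSeq and DESeq2 1.6.3, and the paper names another TopHat version. The genome was GRCm38 with Ensembl genes. The deposited library values (unit signal) are fitted means of the authors' model: same-numbered libraries gave log2 ratios that matched the deposited log2 fold change up to a fixed offset, within 1.5e-14, and 4 singular values were nonzero where free libraries would give 8. They carry no scatter, so no test was made on them. The authors' deposited comparison tables hold a mean normalized count (signal), a log2 fold change with its SE, a Wald score, and a p-value with its adjusted p-value, from DESeq2 fitted with terms for library date and for condition. These authors' values were used at a threshold of 0.05. Each table repeated 3 gene identifiers, counted once. The differences of the recomputed from the deposited adjusted p-values were at most 0.00114.

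Computed here were library factors by median of ratios, 95% intervals (1.96 SE), a combined Wald test with 2 degrees of freedom whose covariance follows from the 3 SEs, Benjamini-Hochberg adjustment over all genes, chromosome medians, shared 50-base runs, and motif matches. The 3′UTR of Tnfaip3 is not reported here. Gene models and 3′UTRs came from GENCODE M21 (GRCm38, a later annotation than the authors'), and promoters from RefSeq (GRCm38.p6), in which all 10 members matched by symbol. The kB consensus ran from G bases through a purine, any bases in its middle and pyrimidines to C bases. No preference for A or T was set in the middle. Python 3.11.15, numpy 2.4.6, pandas 2.3.3, scipy 1.17.1 and matplotlib were used, and the tests were tried on simulated data. Alternatives were adjustment over other gene sets, Wald scores divided by their central spread (1.51, 1.77 and 2.17, where 1 is expected if most genes are unchanged), and centring on all genes, on chromosomes or on a GC and length trend. Named were every member and, per list and comparison, up to 4 called genes of largest change. The members and lists were chosen with earlier results of these data known.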

Additional observations from a re-analysis of the deposited data

Results flagged for a closer look

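The change against GFP differed between TTP and TTP-AA for 2 members, by the direct comparison of both forms in the authors' deposited table. For Socs1 the level in TTP-AA exceeded that in TTP by 1.52 ± 0.21 on the log2 scale (DESeq2 adjusted p 1.1e-11), with estimates of -0.21 for TTP and 1.31 for TTP-AA against GFP. Birc3 was higher by 0.65 ± 0.23 (DESeq2 adjusted p 0.0195), with estimates of -0.17 and 0.48 against GFP, neither of which passed the test alone.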

How the results depend on the processing

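Of 210 repeats of a member's change under 7 alternatives per comparison, 206 kept their side of the threshold and 0 changed direction with a call. Most of these repeats were of changes not called as deposited, since 0, 2 and 2 members were called in the 3 comparisons. The total is thus a weak measure of how stable the calls are. Dividing Wald scores by their central spread left 1 member called for TTP-AA versus GFP, 1 for TTP-AA versus TTP and 1 in the combined test, in each case Socs1, and left 247, 197 and 266 of all genes in the 3 comparisons and 462 in the combined test. It ended the calls of Tnip1 for TTP-AA versus GFP and of Birc3 for TTP-AA versus TTP, and left 0 genes of the ubiquitin list called and of the SOCS list only Rnf7, for TTP versus GFP. Centring on chromosomes added Cyld for TTP-AA versus GFP (-0.29) and Tnip1 for TTP-AA versus TTP (0.49), and took the calls of the ubiquitin list in TTP-AA versus TTP from 9 to 5. Over the 7 alternatives, computed from the deposited DESeq2 values, the adjusted p ran from 1.7e-08 to 0.0298 for Socs1 in TTP-AA versus GFP and from 7.8e-12 to 0.0389 for it in TTP-AA versus TTP, from 0.000800 to 0.554 and from 0.0118 to 0.940 for Tnip1 in the same order, from 0.0147 to 0.850 for Birc3 in TTP-AA versus TTP and from 0.0389 to 0.798 for Cyld in TTP-AA versus GFP. Scaling libraries by their sum moved group levels of members by factors from 0.990 to 1.005. No paired analysis was possible because the per-library table holds values predicted by a model, without residuals, so fits with and without the replicate number could not be set side by side. The deposited comparisons themselves hold a library date term that splits the libraries as the replicate numbers do. Leaving out a library was not run, since fitted values hold no scatter. Cish had the lowest depth of the members, at a mean of 64.7.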
